A study of Mus musculus with 12 samples.

Results

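Rcan1 and the genes of calcineurin-NFAT signalling are described here in RNA of the mouse thoracic aorta. The 10 genes were taken by their symbols from a table of 27933 genes: the calcineurin regulators Rcan1, Rcan2 and Rcan3, the calcineurin subunit genes Ppp3ca, Ppp3cb and Ppp3r1, and the transcription factor genes Nfatc1, Nfatc2, Nfatc3 and Nfatc4. All 10 were in the table and all 10 had enough counts to be tested. Rcan1 was chosen by its measured difference between nicotine and air in wild-type mice in these same libraries, where it was 1 of 3 genes called, and the other 9 follow from its pathway.

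RNA was sequenced in 12 libraries of C57BL/6J aortas, cleaned of fat, in 4 groups of 3. The groups are alpha7 nicotinic receptor knockouts (KO, by their label) that inhaled nicotine vapor (libraries 3, 4 and 5), KO mice in room air (1, 2 and 7), wild-type (WT) mice that inhaled nicotine (6, 11 and 12) and WT mice in room air (8, 9 and 10). All mice were 5 months old at the start of 12 weeks of exposure and 8 months old at harvest. The labels do not say how the receptor gene was disrupted, in which cells, or whether each library is a separate mouse.

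Calcineurin is a phosphatase that calcium and calmodulin switch on. It removes phosphates from the NFAT factors, which then enter the nucleus, and kinases such as those of the DYRK, GSK3 and casein kinase families send them out again. The Rcan proteins bind calcineurin and restrain it. The short transcript of Rcan1 starts at an inner promoter that NFAT itself drives, so its RNA is widely read as a sign of calcineurin activity, and the pathway is known in vessels for roles in smooth muscle growth and endothelial activation.

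Total counts ran from 10240031 to 12628323 per library, and mitochondrial genes took 3.0 to 7.52% of them. Smooth muscle markers were present in each library, with a summed level over 8 genes of 22759 to 45683 in CPM (reads of a gene relative to the TMM-scaled total of its library). Chrna7, which encodes the alpha7 receptor, had 25, 8 and 21 counts in KO nicotine, 26, 18 and 28 in KO air, 9, 18 and 26 in WT nicotine, and 22, 35 and 37 in WT air. The groups overlapped. Reads from exons that a deletion leaves in place would be counted too, so the counts are no check of genotype, and KO stands for the label throughout. In whole tissue, a change in RNA per cell and a change in the number of cells that carry it cannot be told apart.

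The Rcan1 gene has an outer and an inner start in RefSeq on build GRCm38.p6, and the windows before both are shown. In GENCODE M21 the gene reaches further out, to 92470867, so these need not be its only starts. The outer start lies at position 92466169 on the minus strand of chromosome 16 and the inner start 66091 bases further along the gene, at 92400078, inside intron 1 of a longer GENCODE M21 transcript. The windows are the 250 bases before each start, chr16:92466170-92466419 and chr16:92400079-92400328, minus strand, written 5′ to 3′. Capitals mark GGAAA, the core of NFAT binding sites, on either strand (TTTCC on the reverse).
Rcan1 outer promoter: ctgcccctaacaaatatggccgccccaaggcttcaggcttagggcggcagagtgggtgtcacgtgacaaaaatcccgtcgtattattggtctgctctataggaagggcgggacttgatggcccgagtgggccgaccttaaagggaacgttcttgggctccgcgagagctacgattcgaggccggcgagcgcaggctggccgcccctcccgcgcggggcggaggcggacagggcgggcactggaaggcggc
Rcan1 inner promoter: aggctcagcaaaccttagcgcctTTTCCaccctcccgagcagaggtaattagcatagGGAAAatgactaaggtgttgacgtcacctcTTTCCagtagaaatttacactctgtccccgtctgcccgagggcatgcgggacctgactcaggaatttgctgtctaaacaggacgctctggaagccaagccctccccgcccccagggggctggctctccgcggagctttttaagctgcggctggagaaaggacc

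The inner window held 3 copies of GGAAA, beginning 227, 193 and 163 bases before the start, and the outer window held none. Of 32851 windows of the same length before mouse starts in the RefSeq table, 55.6% held at least 1 copy and 6.39% at least 3. The inner window also held TGACGTCA, the cyclic AMP response element, 175 bases before the start (present in 1.55% of windows) and a match to the AP-1 motif TGANTCA 110 bases before it (6.75% of windows). Both of these motifs were searched on both strands, and none of the matches overlapped. Windows of 7 other members were in the table. The one before the 92400078 start was the 1 member window with a TGACGTCA, while Nfatc2, Nfatc4 and Ppp3cb each had a window with 3 copies of GGAAA. An Rcan2 window, before the start at 43952999, also held a TGANTCA match. A match is a run of letters and does not show that a factor bound there.

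The deposited counts are per gene and cannot say which Rcan1 promoter was in use. In GENCODE M21 the transcript of the inner start has a first exon of 182 bases and shares 2008 of its 2190 bases (91.7%) with the longer one. The gene has 5 coding transcripts there, and a count per gene sums over them.

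Rcan1 RNA was high in the 3 WT nicotine libraries and low in the other 9. It measured 30.8, 23.2 and 24.4 CPM in KO nicotine (libraries 3, 4 and 5), 29.1, 21.4 and 21.7 CPM in KO air (1, 2 and 7), 55.3, 78.8 and 75.1 CPM in WT nicotine (6, 11 and 12), and 30.5, 26.2 and 29.4 CPM in WT air (8, 9 and 10). Each WT nicotine library lay above each of the others, and the 9 others lay between 21.4 and 30.8 CPM. The means were 26.1 ± 4.09 CPM in KO nicotine, 24.0 ± 4.35 CPM in KO air, 69.7 ± 12.6 CPM in WT nicotine and 28.7 ± 2.23 CPM in WT air (SD, n = 3 each). In raw counts the gene had 562, 940 and 919 reads in WT nicotine against 350, 318 and 365 in WT air, so depth was not limiting.

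**Figure D1:**
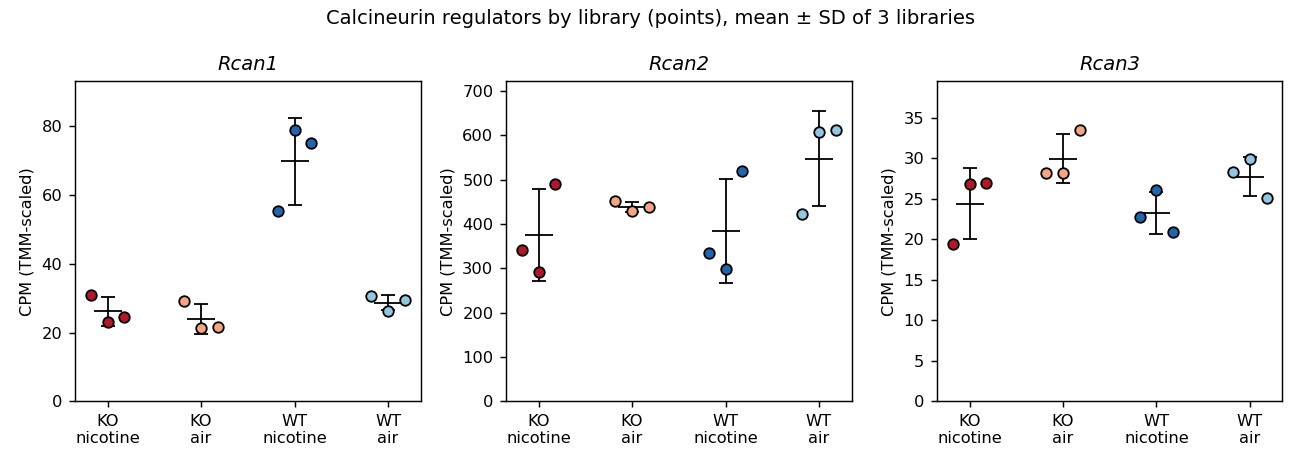
CPM of Rcan1, Rcan2 and Rcan3 (vertical axes, from 0) in each library (points) of the 4 groups (horizontal axes), with the mean and SD of 3 libraries. Rcan1 sits between 55.3 and 78.8 CPM in WT nicotine and at or below 30.8 CPM in the other 9 libraries, while the groups of Rcan2 overlap in each comparison of nicotine with air.

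The log2 fold change of Rcan1 was 1.28 ± 0.17 (SE) for nicotine over air in WT, a 2.43-fold difference. This is the contrast that chose the gene, so it is a description and carries no test here. In the authors' deposited table the same contrast stood at 1.28 with a standard error of 0.20. With 1 library left out at a time, the value ran from 1.20 to 1.44. The call itself ended without WT nicotine 11 (log2 fold change 1.20), WT air 9 (1.22) or WT air 10 (1.31), and with only the WT libraries in the fit (1.28).

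In KO mice, whose libraries the choice did not use, nicotine gave a log2 fold change of 0.12 ± 0.17 (SE) for Rcan1, which did not pass (edgeR adjusted p = 0.921, 95% interval -0.25 to 0.49). The KO nicotine library with the highest level, library 3, and the KO air library with the highest, library 1, were at 30.8 and 29.1 CPM, and the groups overlapped. Without KO nicotine 3 the value was -0.01. In the authors' deposited table it was 0.12, with an adjusted p of 0.997.

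The difference between genotypes in the nicotine effect was -1.16 ± 0.24 (SE) on the log2 scale for Rcan1, and edgeR did not call it (edgeR adjusted p = 0.777). DESeq2 put it at -1.17 and called it (DESeq2 adjusted p = 0.036), and limma voom did not call it. The difference holds the WT contrast through which Rcan1 was chosen, so the value is a description and nothing is read from these p-values.

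Between genotypes under nicotine, Rcan1 was lower in KO, with 26.1 ± 4.09 CPM in KO nicotine against 69.7 ± 12.6 CPM in WT nicotine (SD, n = 3 each). The log2 fold change was -1.42 ± 0.17 (SE). The comparison uses the same WT nicotine libraries as the choice of the gene, so the value is given without a test. With 1 library left out it ran from -1.57 to -1.33. In room air, KO over WT stood at -0.25 ± 0.17 (SE) for Rcan1 and did not pass (edgeR adjusted p = 0.995, 95% interval -0.63 to 0.12). That comparison shares the WT air libraries with the choice. KO libraries carry numbers 1 to 5 and 7 and WT libraries 6 and 8 to 12, and an effect of whatever the numbers stand for cannot be told apart from genotype.

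Other contents of the tissue also differed between the groups. Macrophage markers (8 genes) summed to 313 to 591 CPM in KO nicotine, 277 to 446 CPM in KO air, 429 to 589 CPM in WT nicotine and 276 to 290 CPM in WT air. All 8 were above 0 in log2 fold change with nicotine in WT, and 7 of 8 in KO. Fibroblast markers (7 genes) summed to 2591 to 3575 CPM in KO nicotine, 2684 to 3933 CPM in KO air, 3436 to 4523 CPM in WT nicotine and 2797 to 3431 CPM in WT air. All 7 were below 0 with nicotine in KO and above 0 with nicotine in WT, where the sums did not overlap, and all 7 were below 0 for KO over WT under nicotine. Immediate early genes (10 genes), which cells switch on within minutes of a stimulus, summed to 1310 to 2923 CPM in KO nicotine, 1336 to 3074 CPM in KO air, 1963 to 4079 CPM in WT nicotine and 723 to 2865 CPM in WT air. Of them 4 of 10 were above 0 with nicotine in KO and 10 of 10 in WT. Adipocyte markers (9 genes) summed to 2743 to 7641 CPM in KO nicotine, 2539 to 5017 CPM in KO air, 4297 to 5288 CPM in WT nicotine and 1243 to 4811 CPM in WT air, and all 9 were above 0 with nicotine in both genotypes. With a covariate for the adipocyte, immediate early or smooth muscle score, the WT nicotine value of Rcan1 was 1.30, 1.25 and 1.27. Its call ended under each of them. Markers of neutrophils and T cells were scarce. The 5 neutrophil genes summed to 3.15 to 7.51 CPM in KO nicotine and 3.74 to 8.29 CPM in KO air. In WT they summed to 9.22 to 57.1 CPM with nicotine and 2.78 to 12.4 CPM in air. Each WT nicotine library thus lay above all KO libraries, while the WT groups overlapped. Of the 4 neutrophil genes tested, 4 lay above 0 with nicotine in WT and 1 in KO. All 4 lay below 0 for KO over WT under nicotine. The 7 T cell genes summed to 5.26 to 8.24 CPM in KO nicotine and 7.09 to 14.5 CPM in KO air. Their WT sums were 4.41 to 11.5 CPM with nicotine and 6.01 to 9.19 CPM in air. Skeletal muscle markers (7 genes) summed to 8.09 to 187 CPM in KO nicotine, highest in library 3, and to 8.17 to 12.8 CPM in KO air. In WT they summed to 9.05 to 40.7 CPM with nicotine and 8.53 to 13.3 CPM in air. The part of macrophage, fibroblast, neutrophil, T cell and skeletal muscle markers in the Rcan1 values was not tested.

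Rcan2 and Rcan3, the relatives of Rcan1 that also bind calcineurin, did not share its pattern. Rcan2 gave 342, 293 and 491 CPM in KO nicotine, 451, 429 and 437 CPM in KO air, 334, 299 and 519 CPM in WT nicotine, and 423, 607 and 612 CPM in WT air. KO nicotine 5 and WT nicotine 12 lay above the rest of their groups, so that the nicotine and air groups overlapped in both genotypes. Its log2 fold change was -0.23 ± 0.23 (SE) with nicotine in KO (edgeR adjusted p = 0.887) and -0.51 ± 0.23 with nicotine in WT, where no test is given. The libraries low in Rcan2 were also low in smooth muscle markers. These summed to 22759, 24570 and 37220 CPM in KO nicotine 3, 4 and 5, and to 28166, 27866 and 32343 CPM in WT nicotine 6, 11 and 12. With the smooth muscle score as a covariate, the log2 fold change of Rcan2 was 0.11 ± 0.13 in KO and -0.13 ± 0.13 in WT, a turn of sign in KO.

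Rcan3 reached 19.4, 26.9 and 27.0 CPM in KO nicotine against 28.2, 28.2 and 33.5 CPM in KO air, so the groups did not overlap. The log2 fold change was -0.30 ± 0.16 (SE) and did not pass (edgeR adjusted p = 0.878). In WT it was at 22.8, 26.1 and 20.9 CPM with nicotine against 28.3, 29.9 and 25.1 CPM in air, a log2 fold change of -0.25 ± 0.16 with overlapping groups.

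The 3 calcineurin subunits varied little. Ppp3ca encodes the alpha catalytic subunit. It measured 71.9, 80.0 and 71.9 CPM in KO nicotine, 72.9, 66.8 and 69.3 CPM in KO air, 71.3, 76.8 and 67.5 CPM in WT nicotine, and 63.4, 53.1 and 65.4 CPM in WT air. WT air was the lowest group, with no overlap with WT nicotine or with KO air. The log2 fold change of KO over WT in air was 0.20 ± 0.11 (SE) and did not pass (edgeR adjusted p = 0.995). That of nicotine in KO was 0.10 ± 0.11 (edgeR adjusted p = 0.893), and that of nicotine in WT was 0.24 ± 0.11, given without a test.

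Ppp3cb, the beta catalytic subunit, ran from 61.2 to 78.7 CPM over the 12 libraries, and its 4 group means ran from 65.7 to 74.6 CPM. Ppp3r1, the regulatory subunit that binds calcium, ran from 57.8 to 74.3 CPM, with means of 61.5 ± 3.64 CPM in KO nicotine, 62.0 ± 3.28 CPM in KO air, 61.0 ± 4.64 CPM in WT nicotine and 69.3 ± 5.39 CPM in WT air (SD, n = 3 each). Neither gene passed with nicotine in KO or with KO over WT in air (edgeR adjusted p of 0.943 and 0.995 for Ppp3cb, 0.988 and 0.995 for Ppp3r1). For nicotine in KO the 95% intervals of the log2 fold change were -0.30 to 0.19 for Ppp3cb and -0.24 to 0.21 for Ppp3r1.

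**Figure D2:**
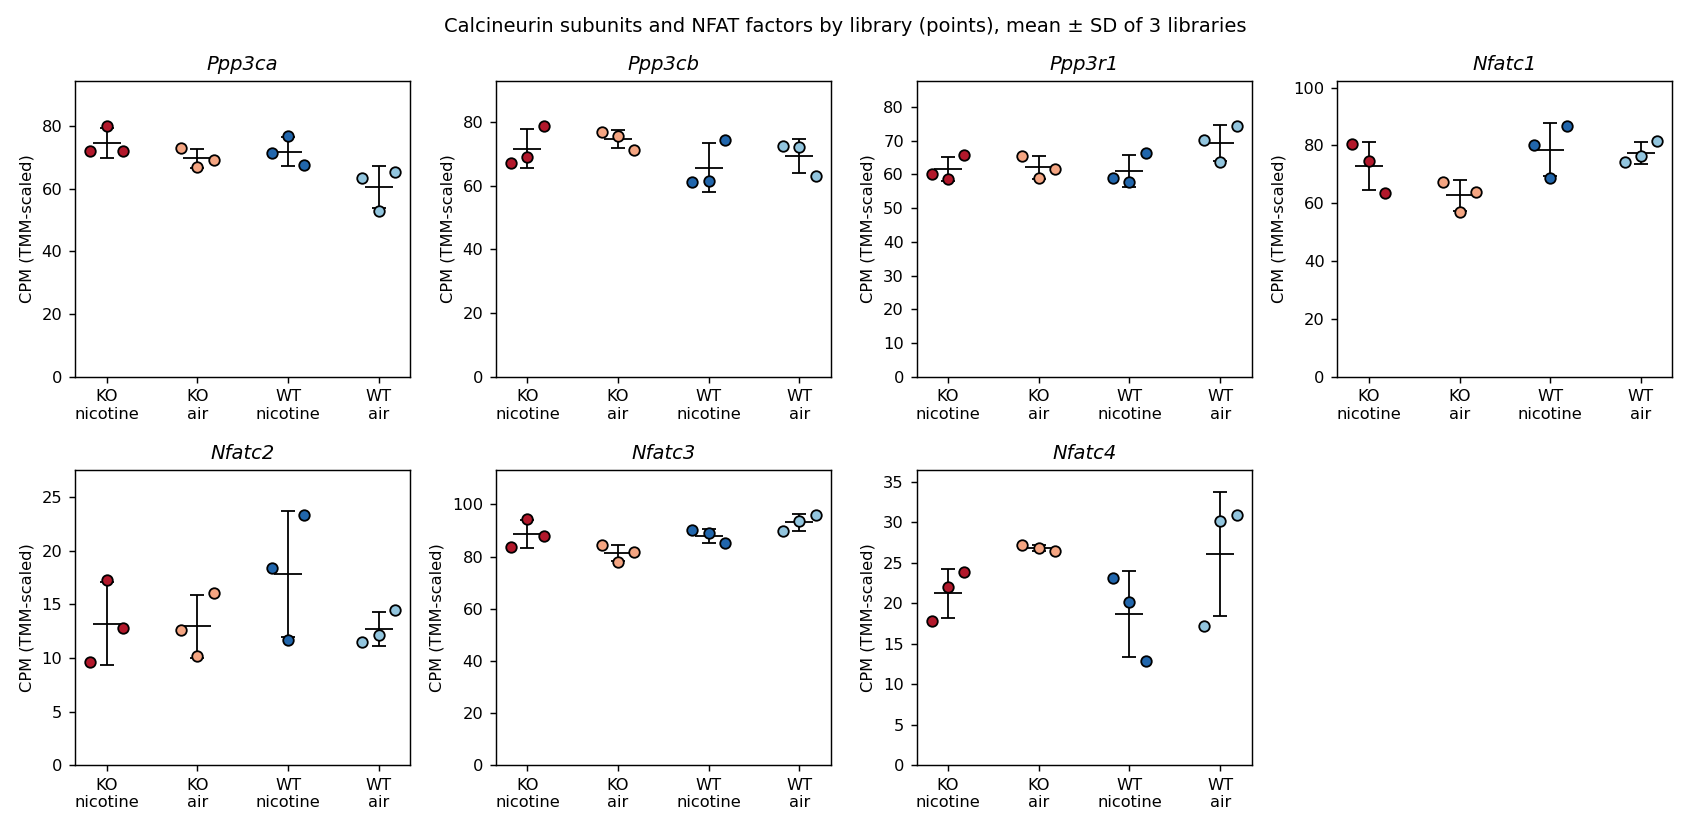
CPM of the 3 calcineurin subunit genes and the 4 NFAT genes (vertical axes, from 0) in each library (points) of the 4 groups (horizontal axes), with the mean and SD of 3 libraries. Nfatc1 and Nfatc3 have their lowest means in KO air, at 57.0 to 67.5 and 78.0 to 84.3 CPM, and none of the 7 genes has all WT nicotine libraries above all others.

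Among the NFAT factors, Nfatc1 and Nfatc3 were lower in KO air than in WT air with no overlap, and neither passed the test. Nfatc1, known from heart valve and osteoclast development, was at 67.5, 57.0 and 63.7 CPM in KO air against 74.4, 76.2 and 81.6 CPM in WT air. Its log2 fold change was -0.30 ± 0.12 (SE, edgeR adjusted p = 0.995). Nfatc3, the family member most studied in arterial smooth muscle, was at 84.3, 78.0 and 81.6 CPM in KO air against 89.6, 93.8 and 96.0 CPM in WT air, a log2 fold change of -0.20 ± 0.09 (edgeR adjusted p = 0.995). Under nicotine the genotypes overlapped for both genes, with log2 fold changes of KO over WT of -0.11 ± 0.12 for Nfatc1 and 0.01 ± 0.09 for Nfatc3. With nicotine over air in KO, Nfatc1 was at 0.22 ± 0.12 and Nfatc3 at 0.12 ± 0.09 (edgeR adjusted p = 0.878 each).

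Nfatc4 gave 17.9, 22.0 and 23.8 CPM in KO nicotine against 27.1, 26.8 and 26.4 CPM in KO air. The groups did not overlap, and the log2 fold change of -0.33 ± 0.24 (SE) did not pass (edgeR adjusted p = 0.878). In WT it was at 23.1, 20.1 and 12.8 CPM with nicotine against 17.2, 30.1 and 30.9 CPM in air, and WT air 8 lay inside the nicotine range. Nfatc2, abundant in T cells, was the scarcest member in reads, with 105 to 286 counts per library. It was at 9.62 to 17.3 CPM in KO nicotine, 10.2 to 16.1 CPM in KO air, 11.7 to 23.4 CPM in WT nicotine and 11.5 to 14.5 CPM in WT air. Its log2 fold change was 0.03 ± 0.27 with nicotine in KO (edgeR adjusted p = 0.989) and 0.48 ± 0.27 in WT, with WT nicotine 12 the highest library.

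Of the 10 members, 1 was called with nicotine in WT, where 0.0205% of all tested genes were called. An unadjusted p under 0.05 by edgeR was found there for 3 members, Rcan1, Rcan2 (lower) and Ppp3ca (higher), against 9.84% of all genes. The called member, Rcan1, is the one the contrast chose, and nothing is read from these counts. With nicotine in KO no member was called by edgeR, DESeq2 or limma voom, against 0% of all genes by edgeR, and none had an unadjusted p under 0.05, against 4.58% of all genes. Between genotypes in air no member was called by any of these 3 tools, again against 0% by edgeR, and 1 member, Nfatc1, had an unadjusted p under 0.05, against 4.36% of all genes. The genotype difference in the nicotine effect and KO over WT under nicotine hold the WT nicotine values that chose Rcan1, so nothing is read from their counts. EdgeR called 0% of all genes in the genotype difference, and 4.43% had an unadjusted p under 0.05. Between genotypes under nicotine these shares were 0.00684% and 8.34%. None of the other 9 members was called or had an unadjusted p under 0.05 in either. With nicotine in KO, Rcan3 and Nfatc4 lay below air with no overlap and no member lay above it. Over all genes 5.55% lay below, 5.13% above and 10.7% either way. Between genotypes in air Ppp3ca lay above and Nfatc1 and Nfatc3 below, against 5.75% of all genes above, 6.06% below and 11.8% either way. With nicotine in WT, Rcan1 and Ppp3ca lay above and none below, against 7.13% above, 6.05% below and 13.2% either way. Between genotypes under nicotine Rcan1 lay below and none above, against 5.59% below, 5.8% above and 11.4% either way. The median log2 fold change of the members was 0.01 with nicotine in KO and -0.07 between genotypes in air, and over all genes it was 0.01 and 0.00.

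**Figure D3:**
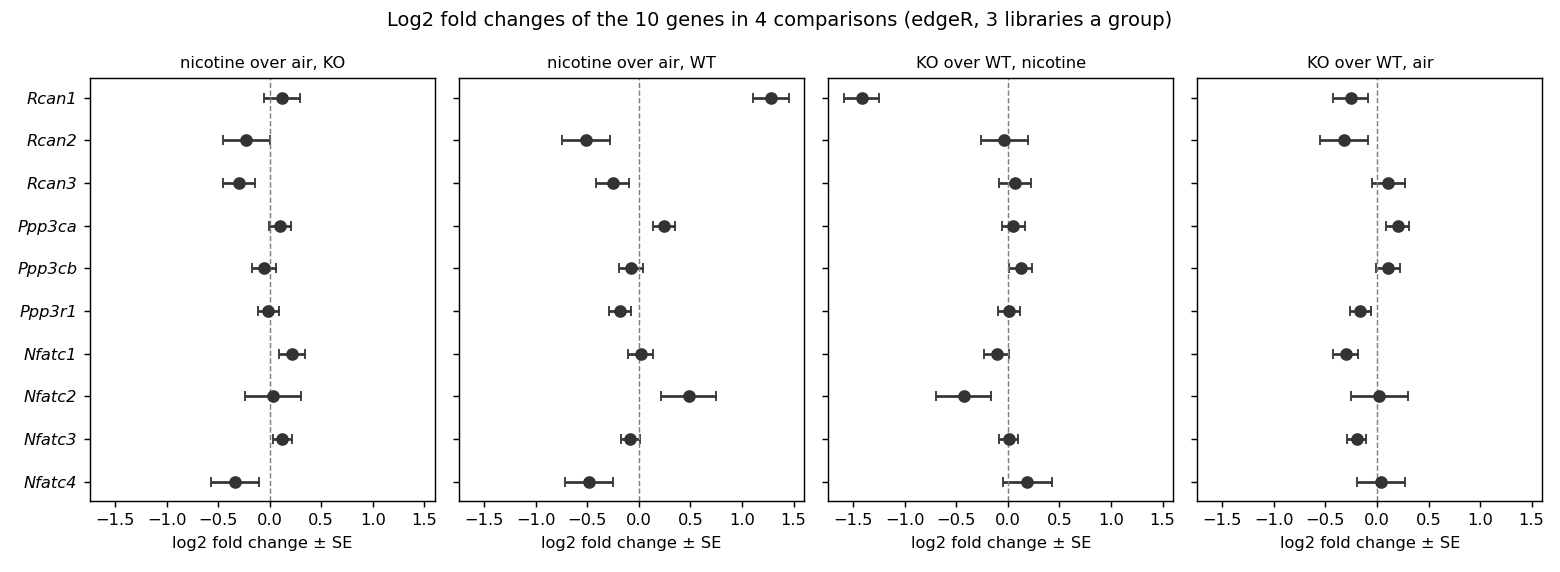
Log2 fold changes (horizontal axis, edgeR) of the 10 genes (rows) in 4 comparisons (panels), with points for the estimate and bars for the standard error. Rcan1 stands at 1.28 for nicotine in WT and at -1.42 for KO over WT under nicotine, and the other 9 genes lie between -0.51 and 0.48 in each panel.

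Levels of different genes were compared per length, as CPM per kilobase of exon (GENCODE M21 coding transcripts, a build other than the authors'). Rcan2 had the highest level, with a median of 107 CPM per kilobase over the 12 libraries and 72.2 in its lowest library, above the highest library of any other member. Ppp3r1 followed at a median of 21.9 CPM per kilobase. Ppp3cb (15.0), Ppp3ca (14.7) and Nfatc3 (14.3) had overlapping ranges, as did Rcan1 (10.5) and Nfatc1 (10.02), and Nfatc4 (5.75) and Rcan3 (5.27). Nfatc2 was lowest, at 1.52 CPM per kilobase. In WT nicotine the level of Rcan1 was 25.1 ± 4.55 CPM per kilobase (SD, n = 3), near Ppp3r1 at 21.3 ± 1.62. Using the longest transcript in place of all exons moved Nfatc1 from place 7 to place 4 in this order.

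The wider pathway was described from 7 lists holding 57 genes, of which 49 were tested. EdgeR and limma voom called none of them in any of the 5 comparisons. An unadjusted p under 0.05 by edgeR was found with nicotine in KO for 0 of the 49 (4.58% of all genes), and for 7 without KO nicotine 5, where 1707 of all genes had one. It was found for 1 between genotypes in air (4.36% of all genes), for 7 with nicotine in WT (9.84%), for 4 in the genotype difference of the nicotine effect (4.43%) and for 5 between genotypes under nicotine (8.34%). The last 3 comparisons share the WT nicotine libraries, and the lists were chosen with earlier results known, so nothing is read from their counts. Of the other calcineurin and calmodulin genes, 4 of 5 were tested, and the 2 with the smallest p in KO or in air were Calm3 (-0.29 ± 0.16 on the log2 scale with nicotine in KO) and Calm2 (-0.19 ± 0.13). Among the 7 tested kinases that return NFAT to the cytoplasm, Gsk3b (-0.15 ± 0.11) and Csnk1d (-0.16 ± 0.12) came first, both for KO over WT in air. Of the 8 tested anchors, inhibitors and immunophilins, Chp2, which encodes a calcineurin-like calcium-binding protein, stood at 0.91 ± 0.46 for KO over WT in air and the immunophilin gene Fkbp8 at -0.14 ± 0.09 with nicotine in KO. Of the 10 tested calcium entry genes, the L-type channel gene Cacna1c stood at -0.33 ± 0.22 with nicotine in KO. Of the 8 other substrates tested, Mef2d stood at -0.23 ± 0.14 and Crtc1 at 0.26 ± 0.17 for KO over WT in air. Nfat5, the relative that responds to salt and not to calcineurin, stood at -0.10 ± 0.17 with nicotine in KO.

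Genes reported as NFAT targets in T cells or vessel cells were the list with the widest values, with 11 of 16 tested and none called by edgeR. Their median log2 fold change was -0.20 with nicotine in KO, where 3 of 11 lay above 0, and 0.63 with nicotine in WT, where 6 of 11 did. Over all genes both medians lay within 0.01 of 0. In WT, 5 of the 11 had an unadjusted p under 0.05, all higher, against 9.84% of all genes in either direction. These 5 were Ptgs2, Ccl2, Egr2, Vcam1 and the scarce Il6 (6 to 42 counts in WT nicotine, 0 to 4 in WT air). With nicotine in WT, DESeq2 called Ccl2, Egr2 and Ptgs2 of them, with 115 of 14621 genes called in all, and edgeR called Ptgs2 without WT air 10. Between genotypes under nicotine the median of the 11 was -0.42 and 5 had an unadjusted p under 0.05, all lower in KO, against 8.34% of all genes. DESeq2 called Egr2 there, with 87 genes called in all. For the genotype difference in the nicotine effect the median was -0.60 and 4 had an unadjusted p under 0.05, all below 0, against 4.43% of all genes. These comparisons share the WT nicotine libraries and are not independent of each other. The WT contrast also chose Rcan1, and the list was drawn up with earlier results of these data known. Nothing is therefore read from these counts and shares.

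Ptgs2, the inducible cyclooxygenase gene, reached 43.7, 29.3 and 41.5 CPM in KO nicotine, 33.1, 19.3 and 22.6 CPM in KO air, 90.6, 90.9 and 63.0 CPM in WT nicotine, and 18.6, 23.8 and 55.7 CPM in WT air. WT air 10 lay well above the other 2 WT air libraries and below the 3 nicotine libraries. Its log2 fold change with nicotine was 0.61 ± 0.38 (SE) in KO (edgeR adjusted p = 0.878) and 1.32 ± 0.38 in WT. Vcam1, an endothelial adhesion gene, measured 80.1, 58.0 and 93.9 CPM in KO nicotine, 74.3, 77.8 and 71.8 CPM in KO air, 101.2, 125 and 84.0 CPM in WT nicotine, and 59.1, 67.0 and 73.8 CPM in WT air. Egr2, an early response factor, gave 7.33, 3.34 and 9.06 CPM in KO nicotine, 18.7, 7.95 and 8.17 CPM in KO air, 73.2, 55.1 and 16.9 CPM in WT nicotine, and 2.96, 5.85 and 9.92 CPM in WT air. Each WT nicotine library lay above each WT air library for all 3 of these genes. The immediate early sums given above were likewise highest in WT nicotine 6 and 11, and their part in these values was not tested. Ccl2, a chemokine gene that draws monocytes, stood at 2.84, 1.91 and 1.94 CPM in KO nicotine, 1.62, 0.598 and 4.71 CPM in KO air, 9.05, 4.19 and 7.68 CPM in WT nicotine, and 1.39, 0.494 and 0.887 CPM in WT air. Its groups overlapped in KO and not in WT, and KO over WT in air was 1.32 ± 0.63 on the log2 scale (SE, edgeR adjusted p = 0.995). The T cell targets Il2, Ifng, Csf2 and Fasl were too scarce to be tested. Spp1, the osteopontin gene, stood at 2.55 ± 0.92 for KO over WT in air (edgeR adjusted p = 0.995), with 1.19, 2.22 and 10.9 CPM in KO air against 0.870, 0.494 and 1.05 CPM in WT air, and KO air 7 the highest library.

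**Figure D4:**
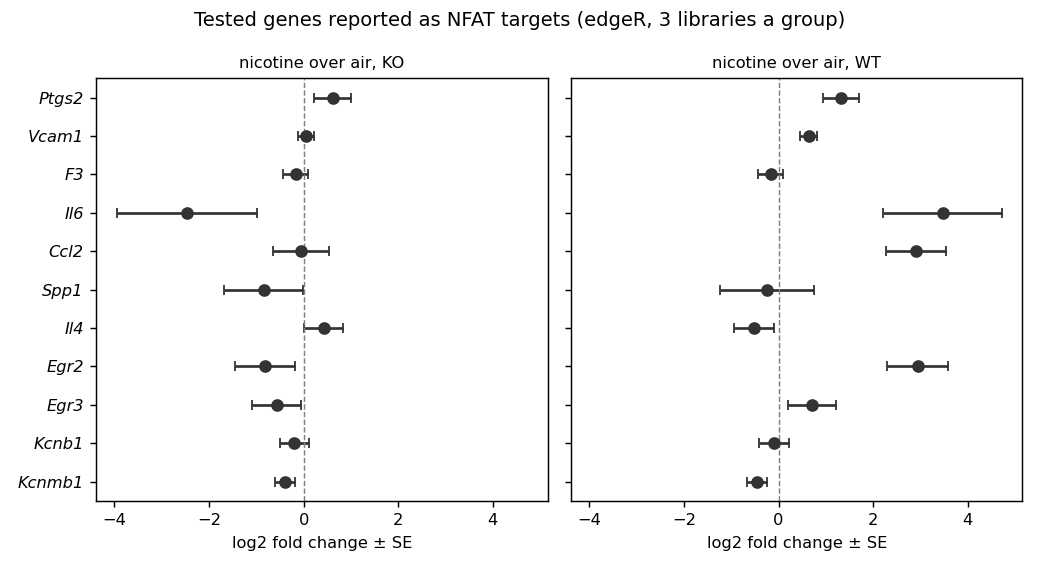
Log2 fold changes of nicotine over air (horizontal axis, edgeR, points with standard errors) for the 11 tested genes reported as NFAT targets (rows), in KO and in WT (panels). In WT Il6, Egr2, Ccl2, Ptgs2, Vcam1 and Egr3 lie above 0 by more than their standard error, and in KO Ccl2 and Vcam1 lie within one standard error of 0.

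Over the 12 libraries, the genes whose log2 CPM was most like that of Rcan1 among 10445 genes with at least 5 CPM were Ubn1 (Pearson r = 0.96, Spearman rho = 0.83), Arid5a (0.96 and 0.92), Fosl2 (0.94 and 0.80), Cttnbp2nl (0.93 and 0.80), Chd1 (0.93 and 0.73), Snrnp48 (0.93 and 0.85), Ugdh (0.93 and 0.79) and Fam46a (0.93 and 0.94). These are descriptions, since the libraries share 4 groups and the genes were picked for their r. After each group's mean was taken off, r with Rcan1 ran from 0.45 for Fosl2 to 0.81 for Arid5a. Fosl2, an AP-1 factor gene, was at 354, 394 and 350 CPM in WT nicotine and between 84.8 and 184 CPM in the other 9 libraries. Arid5a, which encodes an RNA-binding protein that stabilises inflammatory transcripts, was at 87.7, 145 and 100 CPM in WT nicotine and between 32.0 and 57.9 CPM elsewhere. Its log2 fold change with nicotine was 0.36 ± 0.19 (SE) in KO (edgeR adjusted p = 0.878) and 1.13 ± 0.19 in WT. The 10445 genes compared had a mean of at least 5 CPM, and the members and genes without a usual gene name were left out beforehand. Taken separately, the other 9 members had an r with Rcan1 from -0.60 for Nfatc4 to 0.49 for Nfatc1.

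**Figure D5:**
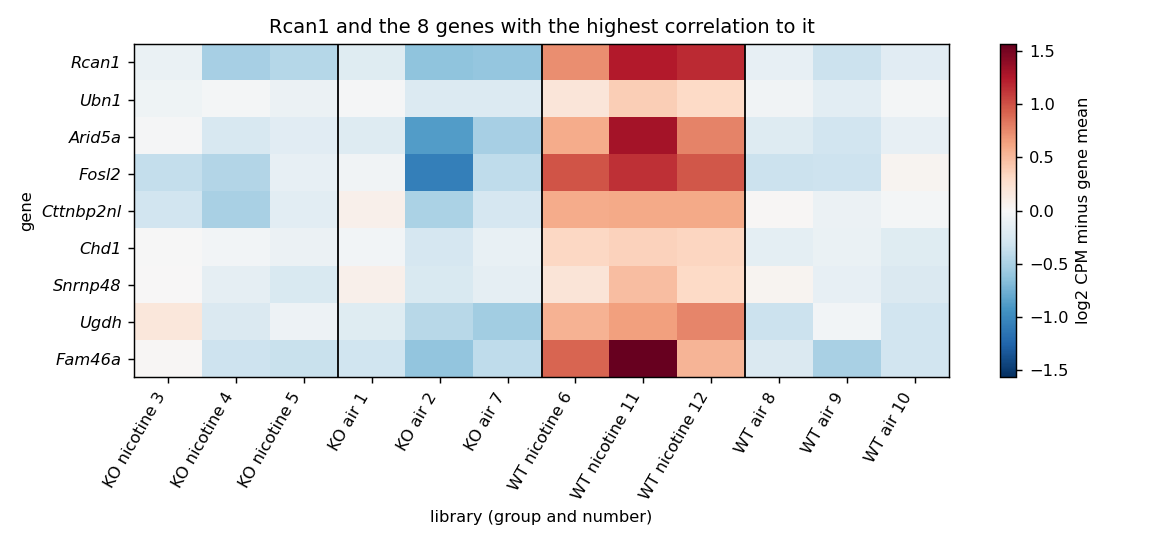
Log2 CPM minus the gene's mean over 12 libraries (colour) for Rcan1 and the 8 genes most correlated with it (rows) in each library (columns, by group). In the 3 WT nicotine libraries all 9 genes are above their mean, and Arid5a and Fosl2 are lowest in KO air 2.

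Of the genes next to Rcan1 on the chromosome, Runx1 and Setd4 had enough counts to be tested, and Kcne1 had 1 read in all. Runx1, a transcription factor gene of blood cells, reached 15.8, 12.2 and 12.9 CPM in KO nicotine, 15.3, 13.7 and 21.1 CPM in KO air, 21.4, 21.5 and 14.5 CPM in WT nicotine, and 12.2, 13.1 and 11.9 CPM in WT air. Its log2 fold change with nicotine was -0.30 ± 0.21 (SE) in KO (edgeR adjusted p = 0.878) and 0.63 ± 0.21 in WT, with no overlap in WT. Setd4 stood at 0.46 ± 0.48 with nicotine in KO and 0.03 ± 0.49 in WT.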

How the data were processed

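The authors deposited raw gene counts, made with HTSeq on mouse build mm9 per the submitters' processing notes. Per the labels' protocols, RNA was isolated with the RNeasy Plus kit and made into SMART-Seq v4 libraries. Aligner, annotation and strand setting: not given in the sources used here. The authors also deposited a table per genotype with, per the file headers, a log2 fold change and its log2 standard error, a base mean (a signal of normalised counts), a test score, a p-value and an adjusted p-value.

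Of 27933 genes, 14621 passed filterByExpr in edgeR 4.0.16. Counts were scaled by TMM and fitted with its robust quasi-likelihood model with 4 group means. Calls use a Benjamini-Hochberg adjusted p under 0.05 over all tested genes, and a standard error is the size of the log2 fold change divided by the root of its F value. Intervals are 95% and, like the p-values, rest on differences among libraries that may be technical, as the labels do not name separate mice. Log2 CPM used a prior count of 2. Alternatives were DESeq2 1.42.0, limma 3.58.1 voom, other size factors, no filter, other samples in the fit, covariates and each library left out. The procedure was tested on simulated counts. Members and lists were chosen with earlier results of these data known. Named genes are the members, the 2 genes of each list with the smallest p in KO or in air, the 8 most correlated genes and the neighbours of Rcan1; the targets with an unadjusted p under 0.05 in WT were named after their values were seen. A gene that the rule takes is not reported here. R 4.3.3, Python 3.11.15, pandas 2.3.3 and matplotlib 3.10.9 were used.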

Additional observations from a re-analysis of the deposited data

How the results depend on the processing

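The log2 fold change of Rcan1 kept its direction under each alternative, other than with nicotine in KO, where it turned to -0.01 without KO nicotine 3. With 1 library left out it ran from 1.20 to 1.44 with nicotine in WT, -0.01 to 0.28 with nicotine in KO, -1.32 to -1.02 for the genotype difference in the nicotine effect, -0.41 to -0.18 for KO over WT in air and -1.57 to -1.33 for KO over WT under nicotine. Members called with 1 library left out were 0 to 1 with nicotine in WT and 0 to 1 for KO over WT under nicotine, with 0 there without WT nicotine 11, KO nicotine 4 or KO nicotine 5. Genes called then were 0 to 34 with nicotine in WT, 0 to 1 for the genotype difference and 0 to 4 for KO over WT under nicotine.

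With nicotine in WT, 0 members were called with the adipocyte, immediate early or smooth muscle covariate or with only the groups compared. Of all genes, 115 were called there by DESeq2, 21 when no gene was filtered, 7 with DESeq2 size factors, 0 with the adipocyte covariate, 1 with the immediate early covariate, 0 with the smooth muscle covariate and 0 with only the groups compared. For the genotype difference, 1 member (Rcan1) and 9 genes in all were called by DESeq2 and 1 gene without the filter. For KO over WT in air, 13 genes were called by DESeq2 and 2 with only the groups compared. For KO over WT under nicotine, 0 members were called with the immediate early covariate or only the groups compared. Genes called there were 87 by DESeq2, 6 with DESeq2 size factors, 7 without the filter, 11 with the adipocyte covariate, 0 with the immediate early covariate and 9 with the smooth muscle covariate. The cause was not tested. The smooth muscle covariate was added after the data were seen. No paired analysis was possible because the groups share no library number.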
